A study of Rattus norvegicus with 20 samples.

Results

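The genes described here encode the subunits of oxidative phosphorylation, the 5 protein complexes of the inner mitochondrial membrane and the electron carrier cytochrome c. They were found by name on the array: every probe other than a control spot whose gene name starts with Nduf, Sdh followed by a to d, Uqcr, Atp5, or Cox4 to Cox8, or is Cycs or Cyc1. That gave 65 genes on 76 probes, of 37198 genes and unnamed probes on the array. Complex I was represented by 28 genes, complex II by 4, complex III by 6, complex IV by 12, complex V by 14 and cytochrome c by 1. Where a gene had several probes, the brightest on average stood for it. All 65 were well above background often enough to be tested.

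The RNA came from 10 rats (Rattus norvegicus) aged 2 years, each of which had a stroke. A pair of cholera toxin B tracers, one with Alexa 488 and then one with Alexa 647, had been injected at the same place in the cortex bordering the infarct. The later tracer was given after 7 days of survival in 5 rats and after 21 days in 5 others, which gives the groups called day 7 and day 21, and cells were captured 7 days after it. From each rat about 300 neurons labelled as sprouting and about 300 labelled as non-sprouting were cut out by laser, and each pool's RNA was amplified by T7 transcription in 2 rounds. Every group thus carries the stroke, both tracers and the age of 2 years, and young rats and rats without a stroke were not analysed here. The pools of a rat were hybridised together on 1 two-colour Agilent array and again on another with the dyes exchanged. The mean of both arrays is 1 log2 ratio per gene and rat, positive where the signal was higher in sprouting neurons, so n is 5 rats a day, and p-values measure the spread between rats. Values with ± are means with the SD over the 5 rats of a day unless another n is given.

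The captured cells were checked against marker genes. Snap25, a synaptic vesicle fusion protein of neurons, was well above background on 20 of 20 arrays in both pools, Camk2a on 18 in the sprouting and 19 in the non-sprouting channel, and the glutamate transporter gene Slc17a7 on 13 and 18. Markers of other cells were also detected. Aif1 and Lyz2 of microglia and macrophages were well above background on 20 of 20 arrays in both channels. So were Mbp of oligodendrocytes and Hbb-b1 of red blood cells. Of endothelium, Pecam1 was well above background on 5 and 8 arrays and another marker on 18 and 20. The astrocyte and interneuron markers checked were so on 12 or more arrays in either channel. The dye-swap array of day 21 replicate 4 stood apart from the others, with a correlation of 0.0539 with its forward array over all features, while for the 65 genes that correlation was 0.733. Correlations across genes are descriptions only, since genes are not independent replicates.

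Oxidative phosphorylation moves electrons from NADH (complex I) or succinate (complex II) through ubiquinone to complex III, on through the small soluble protein cytochrome c to complex IV, and there to oxygen. Complexes I, III and IV pump protons out of the mitochondrial matrix, and complex V, the ATP synthase, uses their return to make ATP. Neurons depend heavily on it to restore ion gradients and to supply axons and synapses. Most subunits are encoded in the nucleus and imported, and a few in mitochondrial DNA. Of 13 mitochondrially encoded subunits none was matched to a probe, so the values below concern nuclear genes.

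The names did not all mean a subunit. Ndufaf1, an assembly factor of complex I, and Atp5s, now called Dmac2l, are not structural subunits. The probe named Cox6b carries the description of a uroplakin transcript in the array files and had a mean signal of 194. Its single values are not given as those of a complex IV subunit. By the name rule it still counts among the 12 genes of complex IV, in that complex's medians and, as Cox6b1, among the promoters below. Cox6c1 is now listed as Cox6c-ps1, a pseudogene close to Cox6c, and the array may not separate the pair. Cox8h is now Cox8b, the heart and muscle form of subunit 8, with a mean signal of 188. Several partner isoforms are not among the probe names: Cox6a1, Cox7a1, Cox8a, Ndufa4 and Ndufa4l2. Without Cox6b, Cox6c1 and both factors 61 genes remained, and their median ratio was 0.0027 at day 7 and 0.0167 at day 21, close to those of the 65.

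Nuclear genes of this pathway are known for short promoter motifs read by nuclear respiratory factor 1 (NRF-1), by GABP, a factor of the ETS family, and by YY1. Promoter stretches are shown because the rule used names alone, so shared promoter letters are a separate feature of these genes. Promoters from 250 bases before to 50 bases after the start were taken from RefSeq (GRCr8), and 56 of the 65 genes had one. Those without one included Atp5h, Cox4i2, Cox6c, Cox6c1, Cyc1, Ndufa8, Ndufb9 and Uqcrb. The letters GCGCANGCG, an NRF-1 motif, occurred on either strand in 15 of the 56 (26.8%) and in 5.8% of all 33469 promoters of that length. The ETS letters CCGGAAG occurred in 16 (28.6%, against 8.75% of all) and the YY1 letters AAGATGGCG in 8 (14.3%, against 1.73%). The NRF-1 letters lay wholly before the start in 12 of their 15 genes and the ETS letters in 15 of 16. The YY1 letters did so in only 1 of 8. At least 1 of these motifs was present in 32 of the 56 genes (57.1%, against 14.5% of all), and no 2 different motifs overlapped in any of them. The TATA box letters TATAAA were in 4 (7.14%, against 14.2%). By complex, the NRF-1 letters were in 6 of 25 genes of complex I, 1 of 4 of complex II, 1 of 4 of complex III, 1 of 9 of complex IV, 5 of 13 of complex V and in Cycs. A match describes these letters in this window and does not show a bound factor.

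The NRF-1 letters are in capitals, on either strand, in the gene of highest array signal of each group that holds them wholly before its start. The stretches run 5′ to 3′ on the gene's strand. Ndufa5 is at chr4:53971236-53971302 (minus strand), Sdha at chr1:30764472-30764550 (plus), Uqcrc1 at chr8:118468149-118468222 (plus), Cox7a2l at chr6:16936526-16936573 (plus), Atp5i, now Atp5me, at chr14:1464750-1464828 (plus) and Cycs at chr4:80984882-80984960 (minus), all in GRCr8. The last motif ended 23 bases before the start in Ndufa5, 37 in Sdha, 30 in Uqcrc1, 4 in Cox7a2l, 66 in Atp5i and 149 in Cycs.
Ndufa5: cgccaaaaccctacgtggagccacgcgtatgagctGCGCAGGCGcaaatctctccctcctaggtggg
Sdha: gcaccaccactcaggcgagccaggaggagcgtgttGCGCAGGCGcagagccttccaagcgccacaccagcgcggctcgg
Uqcrc1: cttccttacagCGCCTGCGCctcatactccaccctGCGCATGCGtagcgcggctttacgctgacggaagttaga
Cox7a2l: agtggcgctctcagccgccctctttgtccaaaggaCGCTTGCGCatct
Atp5i: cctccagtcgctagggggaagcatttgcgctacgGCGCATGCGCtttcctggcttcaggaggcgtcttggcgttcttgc
Cycs: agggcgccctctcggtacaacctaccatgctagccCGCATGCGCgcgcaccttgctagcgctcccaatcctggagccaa

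The first comparison asked whether sprouting and non-sprouting neurons of the same rat differed in these genes. At day 7 the estimated log2 ratio was above 0 for 35 of the 65 genes and below 0 for 30, with a median of 0.0027, beside -0.0022 over all 30999 features tested. At day 21 it was above 0 for 39 and below 0 for 26, with a median of 0.0152, beside 8.64e-05 over all features. In pooled cells fewer cells of a type and less RNA per cell cannot be told apart, and a ratio within an array is relative to the array's other genes. None of the 65 passed limma's test at a Benjamini-Hochberg adjusted p of 0.05 on either day, and neither did any other feature, so the background was 0% for both days. The smallest adjusted p among the 65 was 0.798 at day 7 and 0.916 at day 21. At an unadjusted p under 0.05, limma gave 1 of the 65 at day 7, against 6.17% of all features, and 3 at day 21, against 4.8%. The same sign in all 5 rats was seen for 8 of the 65 at day 7, against 11.1% of all features, and for 2 at day 21, against 6.26%. With 5 rats an exact two-sided sign-flip test cannot go below p = 0.0625.

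The intervals limit how large a difference these data leave room for. They do not cover error from saturated spots, which 22 of the 65 genes had on at least 1 array. The 95% interval of limma had a median half-width of 0.164 on each day on the log2 scale. Both days were in 1 fit with a shared estimate of spread, so each gene's half-width was the same on each day. Some genes varied far more at day 21, such as Uqcrfs1 with an SD of 0.075 at day 7 and 0.60 at day 21. For such genes the day 21 interval is narrower than the spread of that day alone would give. The interval lay within a 1.5-fold difference in either direction for 62 of the 65 genes at day 7 and 64 at day 21. It lay within a 2-fold difference for all 65 on both days. The genes whose interval reached past 1.5-fold were Ndufs1, Cox8h and Atp5a1 at day 7 and Atp5a1 at day 21. For the mean of both days all 65 intervals lay within 1.5-fold, with a median half-width of 0.116.

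**Figure D1:**
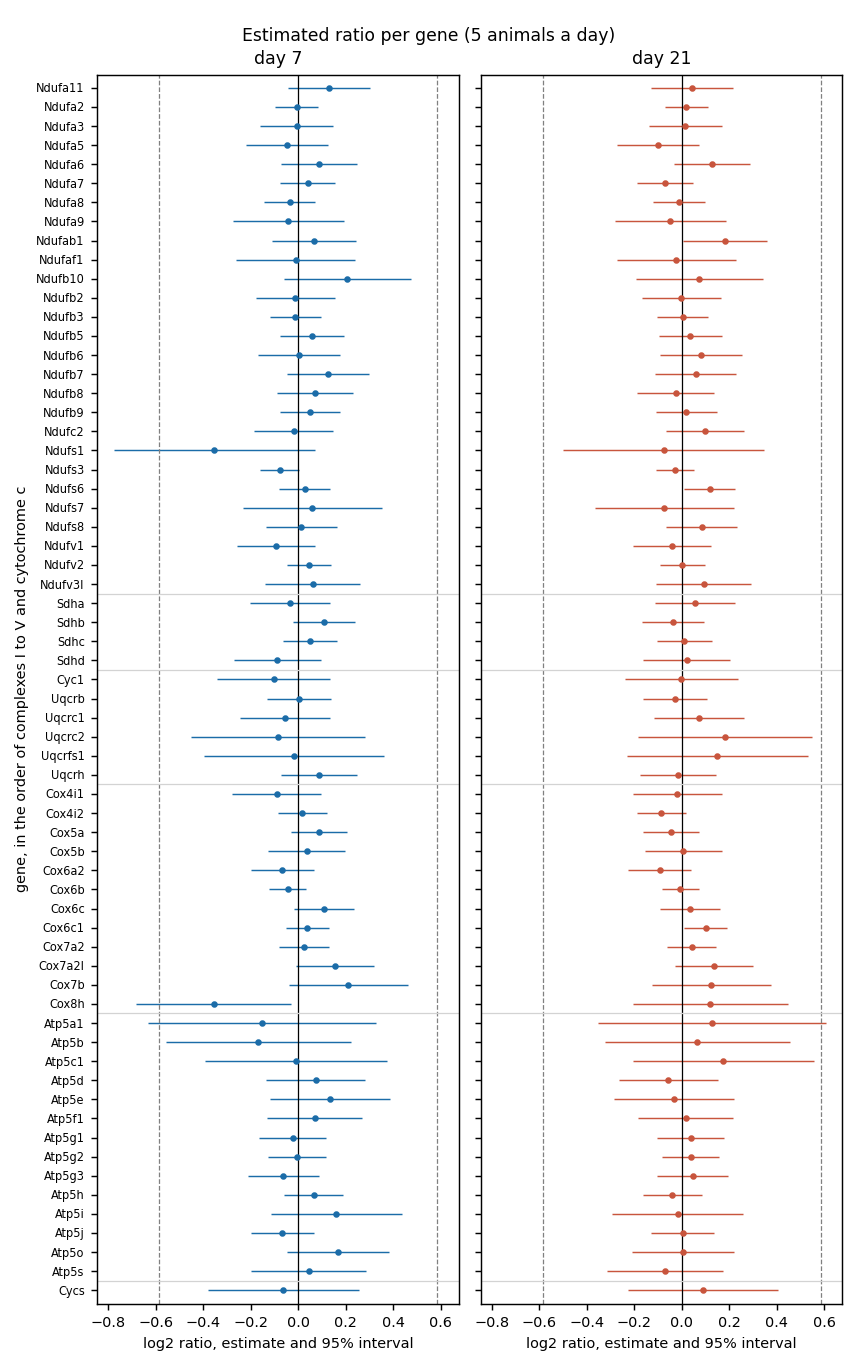
Estimated log2 ratio of 64 of the 65 genes at day 7 (left) and day 21 (right), with limma's 95% interval, 5 rats a day. The interval rests on 1 estimate of spread shared by both days. Dashed lines mark a 1.5-fold difference and the genes stand in the order of the complexes. Points lie around 0 in every complex, and the interval passes a dashed line for 3 genes at day 7 and for 1 at day 21.

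By complex the medians were small in both directions. Complex I had a median ratio of 0.0073 at day 7 and 0.010 at day 21, complex II 0.0080 and 0.016, complex III -0.038 and 0.035, complex IV 0.031 and 0.021, and complex V 0.019 and 0.011. Single rats set the direction of several of these: without day 21 replicate 5 the day 21 median was -0.048 for complex III and -0.038 for complex II, and the day 21 median of each of the complexes I to V was below 0 when 1 or another rat of day 21 was left out. At day 7 those of complexes II and V turned below 0 without replicate 1 (-0.019 and -0.0089). Over the processing alternatives given below, the day 7 median of complex IV ran from -0.052 to 0.11. The medians of single rats spread more widely than those of the days. Day 21 replicate 1 had 55 of its 65 ratios at or below 0, with a median of -0.11, and day 21 replicate 3 had 47 of 65 above 0, with a median of 0.089. The median over the 65 lay between -0.035 and 0.070 in the 5 rats of day 7.

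**Figure D2:**
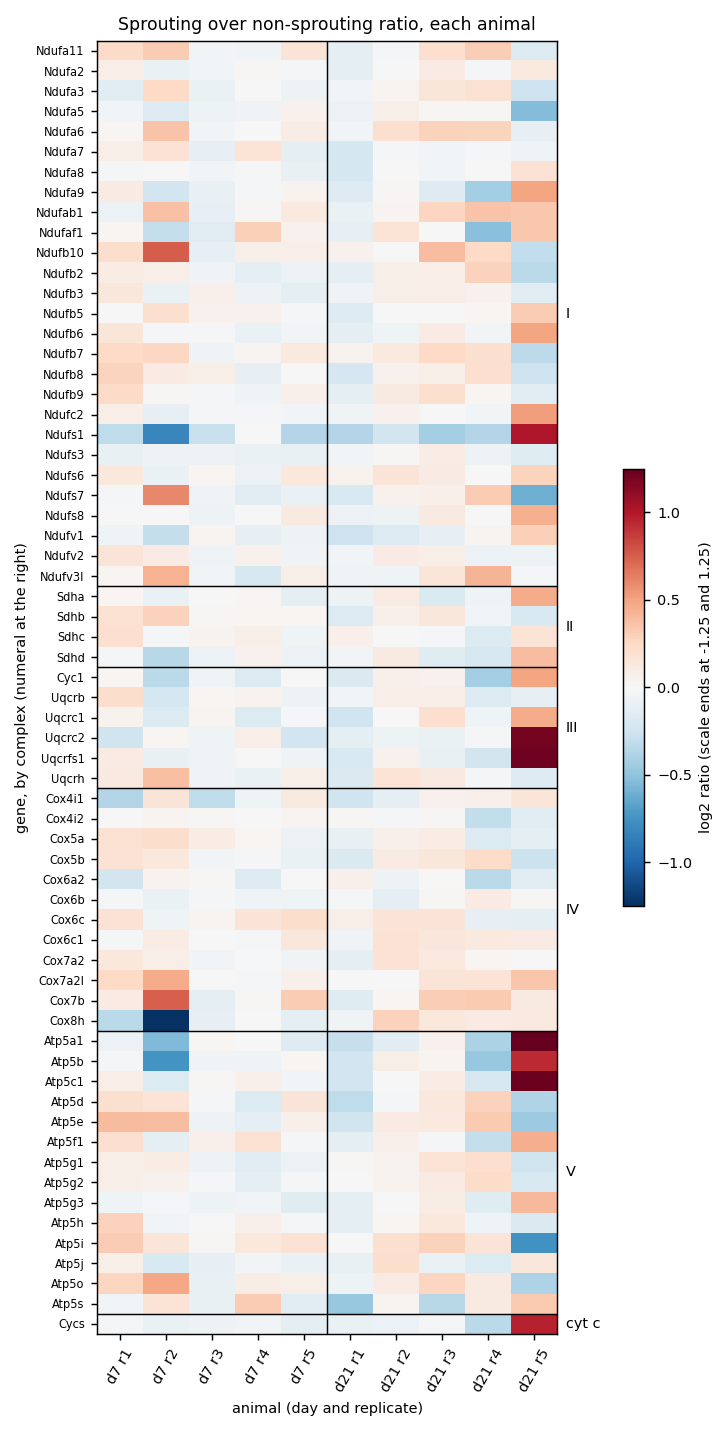
Log2 ratio of sprouting over non-sprouting neurons for 64 of the 65 genes (rows, by complex) in each of the 10 rats (columns; d7 r1 is day 7 replicate 1), in red where higher in sprouting neurons and blue where lower. Day 21 replicate 5 and day 7 replicate 2 hold the strongest colours, in opposite directions for genes such as Ndufs1, Atp5a1 and Atp5b.

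In complex I, which takes electrons from NADH, 16 of 28 genes had a ratio above 0 at day 7 and 16 at day 21. The 7 core subunits measured, which carry the flavin and the iron-sulfur clusters, had a median of 0.0027 at day 7 and -0.028 at day 21, and the 20 other subunits 0.033 and 0.028. Ndufs1, the largest of the iron-sulfur subunits, had the lowest mean of both days among the 65, -0.21. Its ratios were -0.32, -0.81, -0.28, 0.0046 and -0.37 in the 5 rats of day 7 and -0.37, -0.23, -0.42, -0.37 and 1.01 in those of day 21. It was thus below 0 in 4 of 5 rats on each day, close to 0 in day 7 replicate 4 and far above 0 in day 21 replicate 5. The estimate was -0.35 ± 0.29 at day 7 (adjusted p = 0.831 in limma) and -0.076 ± 0.61 at day 21 (adjusted p = 0.977). Without day 21 replicate 5 the day 21 estimate was -0.35 (n = 4), with an unadjusted p of 0.00715 and an adjusted p of 0.639 in limma, and the mean of both days was -0.35 with an adjusted p of 0.147.

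Ndufs3, another core subunit, had values close together at day 7, -0.096, -0.065, -0.059, -0.087 and -0.089. All 5 were below 0, with a mean of -0.079 ± 0.017 (unadjusted p = 0.0546, adjusted p = 0.810 in limma). At day 21 they were -0.035, 0.010, 0.095, -0.060 and -0.15, with both signs. Ndufab1, the mitochondrial acyl carrier protein, had 0.18 ± 0.19 at day 21, from -0.082, 0.037, 0.26, 0.35 and 0.33, above 0 in 4 of 5 rats (unadjusted p = 0.0451, adjusted p = 0.916 in limma). Ndufs6, a small zinc-binding subunit, was above 0 in all 5 rats of day 21, at 0.042, 0.16, 0.10, 0.0080 and 0.28, with a mean of 0.12 ± 0.11 (unadjusted p = 0.0363, adjusted p = 0.916 in limma). At day 7 it had both signs and a mean of 0.027 ± 0.10.

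Of the accessory subunits of complex I, Ndufb10 had 0.21 ± 0.33 at day 7, where 1 rat had 0.76 and the others -0.10 to 0.22. Ndufa6 had 0.088 ± 0.16 at day 7 and 0.13 ± 0.18 at day 21. Ndufa7 was below 0 in all 5 rats of day 21, at -0.22, -0.025, -0.033, -0.023 and -0.056, and had both signs at day 7. Ndufc2 and the core subunit Ndufv2 had means of -0.020 ± 0.068 and 0.045 ± 0.090 at day 7. None of these differences exceeded the spread between rats by limma's test (adjusted p of 0.831 or more at day 7).

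Complex II, which oxidises succinate, had 4 genes, and their ratios were near 0. The flavoprotein gene Sdha had 0.020, -0.083, -0.0057, 0.019 and -0.12 in the day 7 rats and -0.063, 0.10, -0.18, -0.053 and 0.46 at day 21. Sdhb, the iron-sulfur subunit, was above 0 in all 5 rats of day 7, at 0.19, 0.29, 0.017, 0.024 and 0.028, with a mean of 0.11 ± 0.12 (adjusted p = 0.831 in limma). At day 21 Sdhb had -0.17, 0.064, 0.14, -0.031 and -0.19, so the days overlapped. Of the membrane anchors, Sdhc had 0.050 ± 0.10 at day 7 and 0.011 ± 0.12 at day 21, while Sdhd had -0.089 ± 0.15 and then 0.022 ± 0.24.

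Complex III passes electrons from ubiquinol to cytochrome c. Its ratios at day 21 were spread by 1 rat. Uqcrc2, a core protein, had -0.25, 0.022, -0.054, 0.086 and -0.24 in the rats of day 7 and -0.12, -0.068, -0.083, -0.013 and 1.19 at day 21. Uqcrfs1, the Rieske iron-sulfur protein, had 0.10, -0.090, -0.046, -0.0012 and -0.058 in those of day 7 and -0.19, 0.056, -0.093, -0.23 and 1.21 at day 21. In both genes day 21 replicate 5 was far above the other 9 rats, which lay between -0.25 and 0.10. Limma gave an adjusted p of 0.917 for Uqcrc2 and 0.938 for Uqcrfs1 at day 21. Cyc1, the cytochrome c1 haem protein, ranged from -0.34 to 0.026 at day 7 and from -0.43 to 0.49 at day 21. The other core protein Uqcrc1 and the small subunits Uqcrb and Uqcrh had day 7 means of -0.058 ± 0.11, 0.0022 ± 0.16 and 0.087 ± 0.18.

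Complex IV reduces oxygen and has tissue-specific isoforms. Cox4i1, the general form of subunit 4, had a mean of -0.091 ± 0.24 at day 7 and -0.020 ± 0.16 at day 21, and Cox4i2, the form known from lung and from low oxygen, 0.017 ± 0.015 and -0.087 ± 0.14. Cox4i2 was above 0 in all 5 rats of day 7, but at 0.0063, 0.032, 0.012, 0.00098 and 0.033, which are small. Cox6a2, the muscle form of subunit 6a, had -0.067 ± 0.12 and -0.093 ± 0.15. Cox5a had 0.089 ± 0.12 and -0.046 ± 0.11, Cox6c 0.11 ± 0.11 and 0.035 ± 0.14, and Cox7a2 0.026 ± 0.077 and 0.041 ± 0.12.

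Cox7a2l, which helps to join complexes III and IV into supercomplexes, had the smallest p of the 65 for the mean of both days. Its ratios were 0.25, 0.46, 0.0085, -0.017 and 0.067 at day 7 and -0.0025, 0.00056, 0.16, 0.17 and 0.35 at day 21. It was above 0 in 8 of the 10 rats, and the mean of both days was 0.14, with a 95% interval from 0.029 to 0.26, an unadjusted p of 0.0193 and an adjusted p of 0.734 in limma. Cox6c1 was the other gene with an unadjusted p under 0.05 for the mean, 0.069 (unadjusted p = 0.0381, adjusted p = 0.755 in limma). For that comparison limma gave 2 of the 65 at an unadjusted p under 0.05, against 6.51% of all features, and at an adjusted p of 0.05 it called 0 of the 65 and 0% of all features.

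Cox8h had the only unadjusted p under 0.05 at day 7. Its ratios were -0.33, -1.24, -0.11, 0.00075 and -0.11 at day 7 and -0.048, 0.29, 0.13, 0.10 and 0.12 at day 21. Day 7 replicate 2 was far below the others, and the probe is dim, well above background in the sprouting channel on 10 of 10 arrays of day 7 and 8 of 10 of day 21. The estimates were -0.36 ± 0.51 (unadjusted p = 0.0350, adjusted p = 0.798 in limma) and 0.12 ± 0.12. Without day 7 replicate 2 the day 7 value was -0.14 (n = 4).

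In complex V 7 of 14 genes had a ratio above 0 at day 7 and 9 at day 21. Atp5a1 and Atp5b encode the alpha and beta subunits of the head and Atp5c1 the gamma subunit of its central stalk; Atp5a1 and Atp5b are named here after their values were seen. Atp5a1 had -0.071, -0.56, 0.027, -0.0032 and -0.16 in the rats of day 7 and -0.29, -0.14, 0.055, -0.39 and 1.40 at day 21. Atp5b had -0.018, -0.75, -0.048, -0.054 and 0.027 in those of day 7 and -0.24, 0.070, 0.037, -0.48 and 0.93 at day 21. Both genes were lowest of the 10 rats in day 7 replicate 2 and highest in day 21 replicate 5. Atp5c1 had a mean of -0.0099 ± 0.10 at day 7 and 0.18 ± 0.60 at day 21, the latter from 1.23 in replicate 5 and -0.24 to 0.091 in the other 4 rats. In day 21 replicate 5 both head genes were thus above 0, while both signs occurred in the central stalk, the c-ring and the peripheral stalk. Atp5d and Atp5e, the delta and epsilon genes of the central stalk, had -0.37 and -0.46 beside 1.23 for Atp5c1. Atp5g3 of the c-ring had 0.40 beside -0.25 for Atp5g1, and Atp5f1 of the peripheral stalk 0.45 beside -0.39 for Atp5o.

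The c-ring genes Atp5g1, Atp5g2 and Atp5g3 encode the same small protein with different targeting sequences. Their means were -0.023 ± 0.10, -0.0051 ± 0.077 and -0.063 ± 0.052 at day 7 and 0.038 ± 0.18, 0.037 ± 0.15 and 0.045 ± 0.22 at day 21. Atp5g3 was below 0 in all 5 rats of day 7, at -0.053, -0.016, -0.060, -0.034 and -0.15 (adjusted p = 0.906 in limma). Atp5i, the e subunit near the ring, was above 0 in all 5 rats of day 7, at 0.32, 0.16, 0.017, 0.13 and 0.18, with a mean of 0.16 ± 0.11 (adjusted p = 0.863 in limma). It was saturated on 6 arrays, its 0.32 is the mean of -0.25 on the forward and 0.89 on the dye-swap array, and forward arrays alone gave a day 7 estimate of 0.013. At day 21 it had 0.0036, 0.20, 0.29, 0.17 and -0.75, below 0 in replicate 5 only. Of the peripheral stalk, Atp5o had 0.17 ± 0.22 and 0.0046 ± 0.25, Atp5h 0.064 ± 0.13 and -0.039 ± 0.12, and Atp5f1 0.069 ± 0.14 and 0.017 ± 0.28, and the epsilon gene Atp5e had 0.13 ± 0.25 and -0.032 ± 0.31.

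Cycs encodes cytochrome c, the carrier between complexes III and IV and a trigger of apoptosis when released from mitochondria. Its ratios were -0.019, -0.084, -0.066, -0.031 and -0.12 at day 7, all below 0, with a mean of -0.063 ± 0.039 (adjusted p = 0.961 in limma). At day 21 they were -0.083, -0.073, -0.020, -0.34 and 0.96. It was therefore below 0 in 9 of the 10 rats, and day 21 replicate 5 was the exception. The other Cycs probes had means of -0.054 and -0.096 at day 7 and 0.19 and 0.11 at day 21. Over all genes with several probes, 7 of 11 other probes had the sign of the probe used at day 7 and 9 of 11 at day 21.

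Day 21 replicate 5 decided the spread of many of these genes. It was the highest of the 10 rats for 24 of the 65 genes and the lowest for 22. The SD over the 65 genes was 0.46 in that rat, and 0.070 to 0.33 in the other 9. Over all features it was 0.345 in that rat and 0.133 to 0.372 in the other 9. The ratio in day 21 replicate 5 was over 0.5 for 8 genes: Atp5a1, Atp5c1, Uqcrfs1, Uqcrc2, Ndufs1, Cycs, Atp5b and Ndufc2. It was under -0.5 for 3, Atp5i (-0.75), Ndufs7 (-0.61) and Ndufa5 (-0.54), the last a pair named after their values were seen. Of all 30999 features, 2713 were over 0.5 and 844 under -0.5 in that rat. In the other 4 rats of day 21 the mean was -0.19 ± 0.19 for Atp5a1, -0.087 ± 0.16 for Atp5c1, -0.071 ± 0.045 for Uqcrc2, -0.12 ± 0.13 for Uqcrfs1 and -0.13 ± 0.14 for Cycs (SD, n = 4). Both arrays of this rat gave the pattern, with a correlation of 0.898 between forward and dye-swap over the 65 genes. Against the other 9 rats its correlation over the 65 genes lay between -0.590 and 0.139.

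The normalized log2 levels of each pool showed where these ratios came from. For Atp5a1 the non-sprouting pool of day 21 replicate 5 had 6.77, while the other 4 non-sprouting pools of day 21 had 9.85 to 10.46. Its sprouting pool had 8.18, against 9.46 to 10.52 in the others, so both pools were low and the non-sprouting pool lower. For Uqcrc2 its non-sprouting pool had 12.02, against 13.28 to 13.60, and for Cycs 13.76, against 14.68 to 14.93. For these genes its sprouting pool, 13.22 and 14.72, lay within the range of the other sprouting pools of day 21. For Atp5i the non-sprouting pool was the highest, at 15.65 against 14.83 to 14.96.

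**Figure D3:**
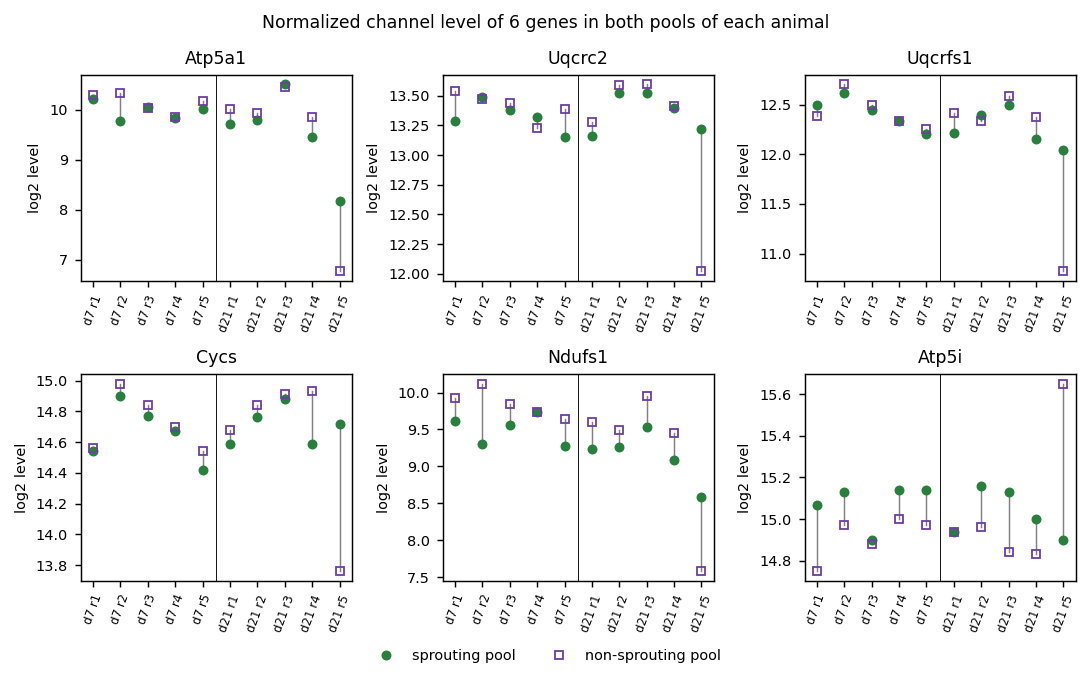
Normalized log2 level of 6 genes in the sprouting (filled circles) and non-sprouting (open squares) pool of each rat, joined by a line; the vertical line parts day 7 from day 21, and each panel has its own axis. In day 21 replicate 5 the non-sprouting pool lies below all others for Atp5a1, Uqcrc2, Uqcrfs1, Cycs and Ndufs1 and above all others for Atp5i.

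Other genes moved in the same rat. Snap25 had a ratio of 1.94 there and -0.56 to 0.11 in the other 9 rats, and Syt1, a calcium sensor of synaptic vesicles, had -2.03 there. The median of the 19 genes of the citric acid cycle and pyruvate dehydrogenase was 0.34 in that rat, that of 12 mitochondrial carriers 0.27 and that of 13 neuron markers -0.40. The summed signal of the neuron markers in that rat was 41850 in the sprouting and 32300 in the non-sprouting pool, where the other rats of day 21 had 33800 to 46460 and 56330 to 66370. The part of these differences in the values of the 65 genes was not tested. Without this rat limma gave 6 of the 65 at an unadjusted p under 0.05 at day 7. It gave 6 at day 21 and 12 for the mean of both days, and still none at an adjusted p of 0.05. At day 7 the estimates stayed the same, such as -0.35 for Ndufs1, and only the spread shared by both days was estimated anew. No share over all features is given here for this setting, so the counts are not read as a result about the 65. In that setting Atp5i had a mean of both days of 0.16 (unadjusted p = 0.00182, adjusted p = 0.205 in limma). Cycs had -0.096 (unadjusted p = 0.0206, adjusted p = 0.373 in limma).

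Several of these genes were bright enough to reach the scanner's ceiling. Of the 65, 22 had a saturated spot on at least 1 of the 20 arrays and 6 on 5 or more: Cox6c and Atp5f1 on 8, Atp5i on 6, and Cycs, Ndufv2 and Uqcrb on 5. Saturation was mostly in the red channel at day 7, with 15 of the 65 genes on the forward array of replicate 1 and 22 on its dye-swap array, and 7 on each array of replicate 3. At day 21 it occurred on 1 array, the dye-swap of replicate 1, for 2 genes. A saturated spot understates the channel it is in, which is that of sprouting neurons on a forward array and that of non-sprouting neurons on a dye-swap array when the spot is red.

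The arrays of day 7 replicate 1 disagreed for these 6 genes. There Cox6c had -0.55 on the forward and 0.92 on the dye-swap array, Atp5f1 -0.55 and 0.97, Atp5i -0.25 and 0.89, Uqcrb -0.29 and 0.73, Ndufv2 -0.29 and 0.61, and Cycs -0.32 and 0.29. The dye-swap value was above the forward value in all 6. In other rats of day 7 the arrays lay closer, as for Cycs with -0.051 and -0.12 in replicate 2 and -0.032 and -0.099 in replicate 3. At day 7 the median of dye-swap minus forward was 0.22 for these 6 genes, 0.049 for the 16 saturated on 1 to 4 arrays and -0.045 for the 43 never saturated; at day 21 it was -0.11, -0.0079 and -0.0041. Over the 65 genes the forward and dye-swap ratios of day 7 replicate 1 had a correlation of -0.441, while over all features it was 0.888. In day 7 replicate 3 it was -0.173 over the 65 and 0.524 over all features, and in the other 8 rats it was 0.523 to 0.911 over the 65. Forward arrays alone turned the day 7 estimate of Cox6c to -0.098 and that of Atp5f1 to -0.15, so no direction can be given for these genes at day 7.

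**Figure D4:**
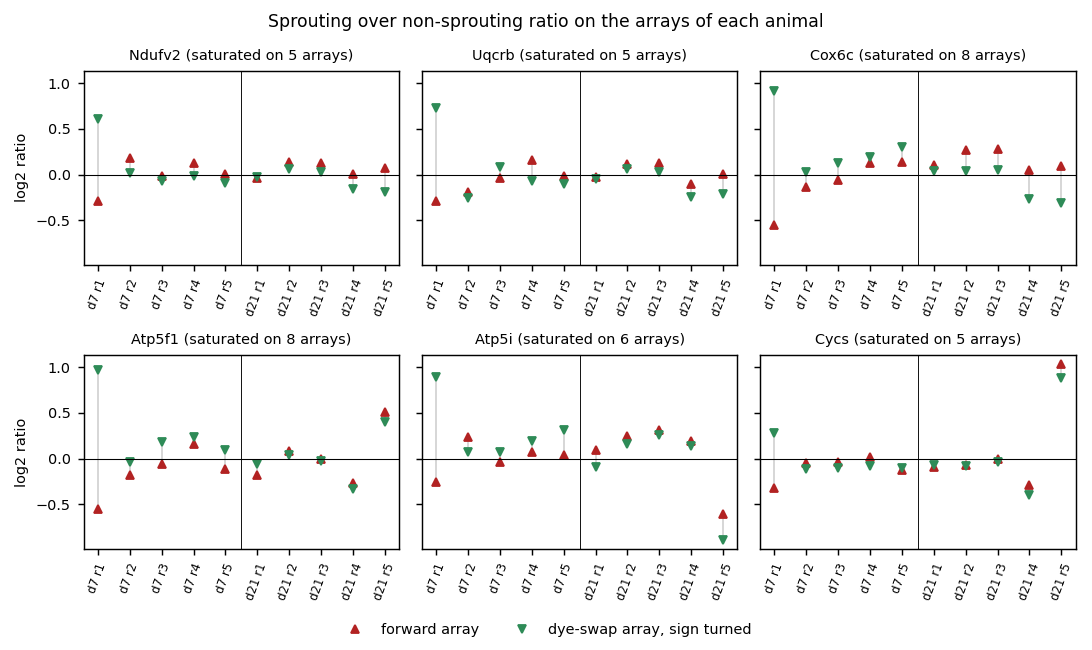
Log2 ratio of sprouting over non-sprouting neurons on the forward array and on the dye-swap array (sign turned) of each rat for the 6 genes saturated on 5 or more arrays. The pair of arrays lies far apart in day 7 replicate 1 for all 6 genes and close together in most other rats.

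A further comparison set the ratio of the day 21 rats against that of the day 7 rats. The difference, day 21 minus day 7, was above 0 for 34 of the 65 genes and below 0 for 31, with a median of 0.0154, beside -0.00096 over all features. Limma called none of the 65 and 0% of all features at an adjusted p of 0.05, and the smallest adjusted p among the 65 was 0.919. At an unadjusted p under 0.05 it gave 1, against 4.11% of all features. The ratios of the days did not overlap for 0 of the 65, against 0.955% of all features. The 1 gene was Cox8h, with a difference of 0.48 (95% interval 0.015 to 0.94, unadjusted p = 0.0444 in limma, and p = 0.0159 in an exact two-sided permutation test over 10 rats, whose smallest possible p is 0.00794). Without day 7 replicate 2 that difference was 0.26. The interval of the difference lay within 1.5-fold for 57 of the 65.

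The last comparison set the level of each pool at day 21 against day 7, with channels scaled between arrays. In sprouting neurons 44 of the 65 genes had a lower level at day 21 and 21 a higher one, with a median change of -0.11 on the log2 scale, and in non-sprouting neurons 48 a lower and 17 a higher one, with a median of -0.11. Over all features the medians were -0.070 and -0.069. A few rats carried much of this. Relative to each gene's mean, the median sprouting level of the 65 was 0.20 and 0.16 in day 7 replicates 1 and 2 and -0.012 to 0.018 in the other 3, and at day 21 it was -0.092, 0.047, 0.071, -0.13 and -0.096. Over all features it was -0.15 and -0.14 in day 21 replicates 4 and 5 and 0.0011 to 0.048 in the other 8 rats. In non-sprouting neurons the 65 had -0.079 and -0.12 in those same rats and 0.011 to 0.040 in the others of day 21. Leaving out each rat in turn, the median change of the 65 was -0.13 to -0.064 in sprouting and -0.14 to -0.054 in non-sprouting neurons, the last without day 21 replicate 5. Complex I had medians of -0.23 in sprouting and -0.25 in non-sprouting neurons, complex V -0.12 and -0.10, complex III -0.097 and -0.19, complex IV -0.019 and -0.026, and complex II 0.0070 and -0.017. Limma called 0 of the 65 and 0% of all features at an adjusted p of 0.05 in either pool, with smallest adjusted p of 0.165 and 0.155 among the 65. At an unadjusted p under 0.05 it gave 14 of the 65 in sprouting neurons, against 16% of all features, and 6 in non-sprouting neurons, against 16.4%.

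The genes with an unadjusted p under 0.05 in this comparison are named after their values were seen. In sprouting neurons 13 of the 14 were lower at day 21: Ndufa3, Ndufa6, Ndufa8, Ndufa11, Ndufb7, Ndufb8, Ndufs8 and Ndufv3l of complex I, Cox4i2 and Cox6a2 of complex IV, and Atp5e, Atp5g3 and Atp5s of complex V. Ndufc2 was higher. For Ndufa8 the sprouting levels were 10.55 to 10.90 at day 7 and 10.39, 10.56, 10.67, 9.54 and 9.76 at day 21, so that replicates 4 and 5 lay apart from the other 8 rats. In non-sprouting neurons Ndufa6, Ndufa11, Ndufv3l, Cox4i2, Cox6a2 and Atp5g3 were lower, all of them also among the 14. The levels of the days did not overlap for 4 of the 65 in sprouting neurons, against 5.12% of all features, and for 2 in non-sprouting neurons, against 6.24%.

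Cox4i2 had sprouting levels of 8.75, 8.89, 8.81, 8.81 and 9.22 at day 7 and 8.61, 7.95, 8.12, 8.45 and 7.89 at day 21. Every rat of day 21 lay below every rat of day 7, with a difference of -0.69 (SE 0.16, unadjusted p = 0.00136, adjusted p = 0.165 in limma). Without day 21 replicate 1 the difference was -0.79 with an adjusted p of 0.0469 in limma, which then called 319 of 30999 features. That rat was the only one of day 21 in a scan batch with day 7 rats. Without it day and scan batch cannot be told apart. The non-sprouting levels of Cox4i2 were 8.75 to 9.19 at day 7 and 7.98 to 8.76 at day 21, and they overlapped. Ndufv3l, an accessory subunit beside the NADH site, had sprouting levels of 9.49, 9.99, 9.64, 9.36 and 9.43 at day 7 and 9.12, 9.17, 9.15, 8.33 and 8.68 at day 21, again without overlap (difference -0.69, adjusted p = 0.169 in limma). Its non-sprouting levels, 9.35 to 9.67 and 7.90 to 9.22, did not overlap either (difference -0.72, adjusted p = 0.177 in limma). Ndufb8 and Ndufc2, both bright accessory subunits of the membrane arm, had differences of -0.29 and 0.23 in sprouting neurons without overlap, and Atp5g3 -0.48 in non-sprouting neurons.

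The change was larger in dim genes. The 65 were parted by mean signal after the data were seen. In the 22 of lowest signal (188 to 3860) the median change was -0.39 in sprouting and -0.45 in non-sprouting neurons, beside -0.090 and -0.094 over the 18079 features of that signal. In the middle 21 it was -0.063 and -0.11, beside 0.026 and -0.034 over the features of that signal. In the brightest 22 it was -0.050 and -0.027, beside 0.0088 and -0.020. Cox4i2 (signal 514) and Cox6a2 (502) are among the dim genes. How far signal sets these changes was not tested.

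**Figure D5:**
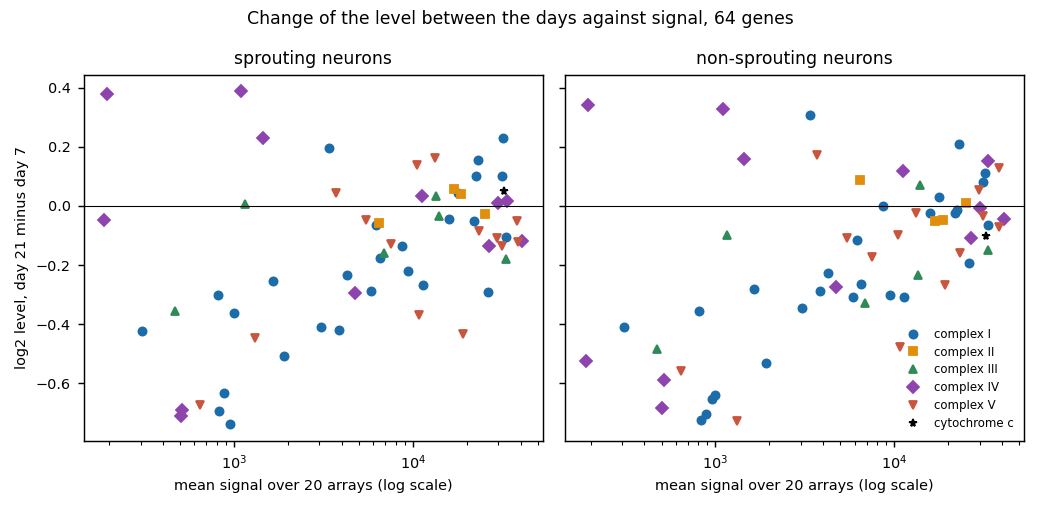
Change of the normalized log2 level from day 7 to day 21 for 64 of the 65 genes in sprouting (left) and non-sprouting (right) neurons against the mean signal over 20 arrays (log scale), coloured by complex. Genes of low signal reach changes below -0.6, while genes of high signal lie nearer to 0 in both pools.

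Scan days held by the files are a batch that follows the day closely. Of 5 scan batches only 1 held both days, with day 7 replicates 4 and 5 and day 21 replicate 1, whose median ratios over the 65 were -0.0078, -0.020 and -0.11. With the scan batch as a block the median difference of the ratio was -0.11. The median level change was then -0.10 in sprouting and -0.0076 in non-sprouting neurons. In that fit only 1 rat of day 21 shared a batch with rats of day 7, so only effect sizes are given. Markers of microglia and macrophages also had lower levels at day 21, with a median change of -0.85 in sprouting and -0.45 in non-sprouting neurons and 12 and 11 of 14 genes below 0. Their summed signal was 4993 to 134100 in the sprouting pools of day 7 and 5514 to 9221 in those of day 21. In the non-sprouting pools it was 9555 to 96800 and 7325 to 10350. Both highest values were those of day 7 replicate 1. The other rats of day 7 had 4993 to 17660 in sprouting and 9555 to 21870 in non-sprouting pools. Other lists moved too. Astrocyte markers had medians of -0.17 and -0.36 (9 of 11 genes below 0 in each pool), endothelium and pericyte markers -0.28 and -0.18 (11 and 7 of 12), oligodendrocyte markers -0.072 and -0.22 (8 and 10 of 12) and blood cell markers -0.31 and -0.20 (5 and 4 of 7). Interneuron markers had 0.10 and 0.29 (8 and 9 of 10 above 0) and general neuron markers -0.019 and 0.062. Limma called none of these marker genes, and their part in the level changes of the 65 was not tested.

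Of the genes that work with these complexes limma called 0 at an adjusted p of 0.05 in any comparison. Of 19 genes of the citric acid cycle and pyruvate dehydrogenase 14 were below 0 at day 7 (median -0.083) and 13 above 0 at day 21 (median 0.032). Dlst, a subunit of the 2-oxoglutarate dehydrogenase complex, had the smallest p of that list at day 7, with a ratio of -0.12 (adjusted p = 0.766 in limma). Of 20 assembly factors outside the name rule 13 were above 0 at day 7 and 14 at day 21, and 16 were lower at day 21 in sprouting neurons, with a median of -0.28. Cox18, which inserts a complex IV subunit into the membrane, had -0.42 there (adjusted p = 0.178 in limma).

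Of 12 carriers 8 were above 0 at day 7 and 10 at day 21. Slc25a3, the phosphate carrier that feeds ATP synthase, had 0.23 ± 0.064 at day 7 and 0.14 ± 0.14 at day 21 (adjusted p = 0.511 and 0.916 in limma), and Slc25a4, which exchanges ADP for ATP, 0.31 ± 0.15 and 0.29 ± 0.42. Of 16 import genes 10 and 11 were above 0, of 19 regulators of mitochondrial biogenesis 6 and 9, and of 17 glycolytic genes 6 and 10. Gapdh had the smallest p among the glycolytic genes at day 7, with 0.24 ± 0.069 (adjusted p = 0.511 in limma). Among marker lists, 7 of 7 blood cell genes were above 0 at day 7 (median 0.29) and 4 at day 21, and 11 of 14 microglial genes at day 7 (median 0.064) and 3 at day 21; Lyz2 had 4.21 in day 7 replicate 1. Medians of the other marker lists lay between -0.060 and 0.037 at day 7 and between -0.17 and 0.072 at day 21. The part of these cells in the ratios of the 65 genes was not tested.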

How the data were processed

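The authors' spot values came from Agilent Feature Extraction (submitters' processing notes), whose release the file headers give as 9.1.3.1. The deposited mean and background intensity of each spot was corrected with normexp (offset 50) and loess within arrays (controls at weight 0) in limma 3.58.1, under R 4.3.3. Outlier spots were set to missing, saturated spots kept and spots of a probe averaged. Ratios were turned to sprouting over non-sprouting, and both arrays of a rat averaged. For the day comparison of each pool, channels were scaled with Aquantile. A probe was tested if both arrays of 3 or more rats of 1 day had it well above background in 1 cell type's channel, which left 30999 features. Test: limma's lmFit and eBayes, both days in 1 fit, Benjamini-Hochberg at 0.05 over all features. The deposited log10 ratio, dye-corrected per the file headers, and the authors' table of log2 ratios, with a normalization not given in the sources used here, were alternatives. Against the loess values the columns of that table had correlations of 0.903 to 1 and each matched its own array best; their medians were 0.00274 to 0.0152, how they were centred stays unknown, and 20 further columns were not used. Other alternatives were no background subtraction, other filters, saturated spots missing, probe means, 1 dye orientation, arrays singly, other scalings, scan batch, replicate block and each rat left out.

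Of the array's named and unnamed probes, 10658 were named by accession, 4587 by symbol and 3876 by synonym through RefSeq, 266 kept the file's name and 21625 had none. Per complex the 3 genes of smallest p in each ratio comparison were named, with complex II, Cyc1, Cycs, isoforms and genes saturated on 5 or more arrays. Of the genes counted, 1 of the 65 and 1 marker are not reported here by name or in figures. Genes and lists were chosen with earlier results of these data known. The replicate numbers belong to different rats on the 2 days and do not pair them. The number of arrays limits the precision.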

Additional observations from a re-analysis of the deposited data

Results flagged for a closer look

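In 9 of 88 groups of 5 rats (1 gene, 1 day) the highest or lowest rat stood apart from the others by Dixon's 95% criterion (0.71 for 5 values), of which chance gives about 1 in 20. The 88 groups did not cover all of the 65 genes. Atp5a1, Atp5b and Ndufa5, named above after their values were seen, were not among them. In 7 of the 9 groups the rat was day 21 replicate 5. There Ndufs1 had a log2 ratio of 1.01 (the other 4 rats -0.421 to -0.229), Uqcrc2 1.19 (-0.121 to -0.0131), Uqcrfs1 1.21 (-0.231 to 0.0562), Atp5c1 1.23 (-0.237 to 0.0913), Cycs 0.961 (-0.341 to -0.0202), Ndufc2 0.523 (-0.0453 to 0.0576) and Atp5i -0.752 (0.00356 to 0.29). These 7 ratios share 1 pair of RNA pools, so they are not separate observations. Without that rat the day 21 estimate was -0.071 for Uqcrc2, -0.12 for Uqcrfs1, -0.087 for Atp5c1, -0.0081 for Ndufc2, 0.17 for Atp5i and -0.13 for Cycs, each of opposite sign to the value with all 5 rats.

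Ndufa7 had -0.218 in day 21 replicate 1, with -0.0564 to -0.0234 in the other 4 rats. Cox8h, a dim probe, had -1.24 in day 7 replicate 2, with -0.333 to 0.000748 in the others.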

How the results depend on the processing

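No member passed an adjusted p of 0.05 under any of 19 to 22 settings of each comparison, except Cox4i2 in sprouting neurons, whose day change was -0.79 (adjusted p = 0.0469 in limma) without day 21 replicate 1. Leaving out each rat gave 0 to 1 such calls there and 0 to 319 over all features. In non-sprouting neurons it gave 0 to 642 over all features. Both highest counts came without day 21 replicate 1, when no scan batch held both days. At day 7 it gave 0 to 1 over all features (1 without day 7 replicate 5). Over all features dye-swap arrays alone gave 15 calls at day 7 and 172 for the mean of both days; arrays entered singly gave 13 at day 7, 1 at day 21, 1 for the difference and 11 for the mean. The mean gave 1 with probe means, no background subtraction, no filter, saturated spots missing or the authors' table, and day 7 gave 1 with no background subtraction. Without normalization between arrays the median level change was -0.73 and -0.75, and with the scan batch block the median difference of the ratio was -0.11; the cause was not tested.

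Single genes turned sign by more than the SD between rats mostly on forward arrays alone: at day 7 Atp5f1 -0.15, Atp5g1 0.097, Atp5g2 0.11, Atp5g3 0.026, Cox5a -0.12, Cox6c -0.098 and Cox7a2 -0.12; for the mean Cox5a -0.077, Cox7a2 -0.041 and Ndufs3 0.0059; for the difference Cox5a 0.084 and Cox6c 0.26. Dye-swap arrays alone turned Atp5g2 (mean -0.073) and Cox7a2 (difference -0.13). The scan batch block turned the difference of Cox4i1 (-0.28) and Cox6c1 (-0.10) and the non-sprouting change of Ndufa11 (0.035), probe means turned Uqcrfs1 at day 7 (0.074), and no normalization between arrays turned the sprouting change of Ndufc2 (-0.37). Smaller sign changes of uncalled values are not listed. With them, 27 of 760 values changed sign at day 7 and 57 of 760 at day 21. For the difference 64 of 836 did so, and for the mean 48 of 760. These totals include settings that cannot change an estimate, such as leaving out a rat of the other day. They are therefore no measure of stability. The highest count at day 7 was 11 of 38, on forward arrays alone. At day 21 it was 16 of 38, without day 21 replicate 5. For the difference it was 19 of 38, with the scan batch block. Level changes were followed for genes with an unadjusted p under 0.05 or days that did not overlap, a choice made after results were seen.

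The replicate block (same-numbered rats had correlations of -0.181 to 0.0378) gave 0 calls and a median difference of 0.0154. At an unadjusted p under 0.05 limma then gave 0, 11 and 7 of the 65 in the comparisons of the days. Without the block 4.11%, 16% and 16.4% of all features had such a p in limma. The share with the block is not given here. Saturated spots and dim probes limit the ratios of single genes.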
